A study of Mus musculus with 6 samples.

Results

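The H3K27ac peak list of pre-B cells holds 69345 intervals, and it was taken whole, on the mouse assembly mm9, with every row of the list as a member. The 101 peaks between the first and the last annotated Vκ gene (chr6:67505630-70654171) were set aside, which left 69244 peaks to be described by width, position, chromosome and gene. Of the 867426 intervals in the 3 lists of the experiment, the others are 782636 bins of 25 bp for H3K4me3 and 15445 Pax5 peaks. The cells were RAG-/-µ+ pre-B cells from the bone marrow of C57BL/6 mice of both sexes, 6 to 14 weeks old, which lack Rag1 and carry a rearranged human heavy chain (IgM) transgene. All 3 profiles share that deletion and that transgene, so every value below is of cells that cannot rearrange their light chain genes. Each profile comes from 1 library, the number of pooled mice is not given in the sources used here, and no value has a replicate check or a test. The depth is unknown, because the list holds positions and a score per peak but no read counts.

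Histone H3 acetylated at lysine 27 (H3K27ac) is placed by the acetyltransferases p300 and CBP on nucleosomes next to bound transcription factors, and it is found at active promoters and active enhancers. H3K4me3 marks active promoters in particular, and Pax5 is the transcription factor that commits progenitors to the B lineage. Pre-B cells carry the pre-B cell receptor, in which the heavy chain pairs with a surrogate light chain made of λ5 (Igll1) and VpreB.

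The label of the cells was compared with marker genes. A peak lay within 1000 bp of a start at 14 of 14 genes of the pre-B receptor and its signalling and at 19 of 19 genes for B lineage transcription factors, beside 49.0% of 22361 protein-coding genes. It was also present at 10 of 10 genes used in every cell, so a start peak alone does not set the pre-B genes apart. The median start scores of the lists were 59.4, 61.3 and 36.5 in that order. The highest start score among them, 180, was that of B2m, a gene used in every cell. Among genes of other tissues a start peak was present at 0 of 9 for liver, 0 of 8 for neurons, 1 of 7 for muscle and 2 of 8 for stroma and vessels. Genes of granulocytes and monocytes did have H3K27ac: 11 of 14 had a peak at a start and all 14 had some within 10 kb of the gene body, beside 63.2% of all protein-coding genes. Their start peaks had scores from 4.60 to 19.8, below the median of 31.8 over all genes with a start peak, and below the pre-B receptor genes except for the lowest of them, Vpreb3, which had the same 19.8. Of the erythroid and megakaryocyte genes 6 of 10 had a start peak, among them the β-globin gene Hbb-b1 with a score of 33.4. In a bulk population, marked chromatin in few cells and weak marking in all cells cannot be told apart, and the part of other bone marrow cells in the list was not tested.

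Sequences of 300 bp on NCBIM37, the same assembly as mm9, are shown for the peaks that the rest of the account returns to. The first is the DNA directly upstream of 5031425E22Rik, whose start carries the highest score of the list (chr5:22939738-22940037, minus strand), and none of the motifs searched occurs in it. The second is the middle of the peak with the highest score more than 10 kb from a protein-coding start (chr12:55839407-55839706, minus strand), where capitals mark the 164 bases annotated as a U1 small nuclear RNA gene. The next are the DNA upstream of Cd79a (chr7:25682100-25682399, plus strand) and of Igll1 (chr16:16864079-16864378, minus strand), both inside a peak, with the E-box CAGGTG or its complement in capitals. Then follows the DNA upstream of Pik3ap1 (chr19:41459587-41459886, minus strand), of which 147 bp lie in a peak that ends before the gene, with the E-box in capitals. The last is the middle of the peak 89471 bp upstream of Lef1 (chr3:130722403-130722702, plus strand), with an E-box and 2 overlapping GC boxes in capitals.
5031425E22Rik upstream: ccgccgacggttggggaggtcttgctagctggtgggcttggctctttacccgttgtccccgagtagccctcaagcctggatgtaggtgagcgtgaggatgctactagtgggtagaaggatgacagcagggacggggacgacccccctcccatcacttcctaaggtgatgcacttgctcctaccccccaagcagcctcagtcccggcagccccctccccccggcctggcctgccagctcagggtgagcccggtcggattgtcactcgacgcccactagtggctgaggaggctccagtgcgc
U1 gene in the chromosome 12 peak: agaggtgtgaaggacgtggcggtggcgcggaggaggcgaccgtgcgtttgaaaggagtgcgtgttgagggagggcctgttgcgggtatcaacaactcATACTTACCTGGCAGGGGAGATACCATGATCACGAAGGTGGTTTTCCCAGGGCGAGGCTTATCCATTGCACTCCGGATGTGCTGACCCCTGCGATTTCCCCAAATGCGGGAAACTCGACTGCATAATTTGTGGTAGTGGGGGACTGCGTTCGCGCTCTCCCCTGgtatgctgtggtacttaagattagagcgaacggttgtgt
Cd79a upstream: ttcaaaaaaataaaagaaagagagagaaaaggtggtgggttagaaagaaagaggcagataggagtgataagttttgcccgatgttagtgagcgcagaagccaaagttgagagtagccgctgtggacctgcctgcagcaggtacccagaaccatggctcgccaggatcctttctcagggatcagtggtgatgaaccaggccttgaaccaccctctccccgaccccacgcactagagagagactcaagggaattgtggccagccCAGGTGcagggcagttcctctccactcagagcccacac
Igll1 upstream: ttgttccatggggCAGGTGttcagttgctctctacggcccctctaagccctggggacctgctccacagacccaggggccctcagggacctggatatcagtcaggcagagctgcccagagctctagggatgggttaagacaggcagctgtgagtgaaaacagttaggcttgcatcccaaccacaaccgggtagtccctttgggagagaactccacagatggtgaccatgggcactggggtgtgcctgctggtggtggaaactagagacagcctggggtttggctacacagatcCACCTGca
Pik3ap1 upstream: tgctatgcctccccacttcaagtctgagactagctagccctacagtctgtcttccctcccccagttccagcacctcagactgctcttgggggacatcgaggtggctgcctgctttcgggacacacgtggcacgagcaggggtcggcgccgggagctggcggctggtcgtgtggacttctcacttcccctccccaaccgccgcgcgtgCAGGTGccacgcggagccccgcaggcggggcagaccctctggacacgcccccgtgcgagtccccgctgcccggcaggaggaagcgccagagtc
Lef1 distal peak: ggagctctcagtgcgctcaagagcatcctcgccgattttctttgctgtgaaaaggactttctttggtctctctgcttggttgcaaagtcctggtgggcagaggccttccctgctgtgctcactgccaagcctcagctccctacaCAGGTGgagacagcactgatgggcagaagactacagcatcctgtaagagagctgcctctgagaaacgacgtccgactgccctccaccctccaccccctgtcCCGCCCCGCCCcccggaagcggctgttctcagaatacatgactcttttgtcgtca

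The peaks covered 47.9 Mb, or 1.88% of the 2555 Mb of sequence. Their median width was 428 bp, with quartiles at 274 and 780 bp, and 5.66% of them had exactly the smallest width in the list, 203 bp. The widths were skewed, as the 17.7% of peaks wider than 1000 bp held 49.2% of the covered sequence. The scale of the score is not named in the list. Scores ran from 3.06 to 330 with a median of 8.52, and they rose with width. The median score was 5.94 for peaks under 300 bp, 12.3 for those of 500 to 1000 bp and 38.6 for those of 2000 to 5000 bp. Wider peaks also overlapped Pax5 more often: 9.66% of those under 300 bp did so, against 60.4% of those of 2000 to 5000 bp. A wide interval has more room to touch another list, and the part of that in the overlap was not tested here. The 333 peaks wider than 5000 bp had a median score of 65.3, and 87.7% of them overlapped Pax5. Only 84 of these 333 lay over a start, while 152 were more than 10 kb from one.

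A peak was counted as near a start when its closest base lay within 1000 bp of the start of a protein-coding transcript. This held for 25.2% of the peaks, while 2.31% of the genome lies that close. The peaks at starts and those elsewhere formed 2 sets with different values. Near starts the median width was 609 bp and the median score 19.8, 84.2% of peaks overlapped H3K4me3 and 63.0% overlapped Pax5. More than 10 kb away, where 50.9% of the peaks were, the median width was 384 bp and the median score 7.40, and the overlaps were 8.30% with H3K4me3 and 12.2% with Pax5. From 1000 bp to beyond 100 kb the median score was 7.40 in every distance bin, a value that many peaks share, and the overlap with Pax5 was at most 12.6%. The overlap with H3K4me3 went on falling, from 14.6% between 1000 and 5000 bp to 9.13% between 5 and 10 kb and 7.22% beyond 100 kb. The density fell too, as peaks covered 3.90% of the bases between 1000 and 5000 bp from a start, 2.02% between 10 and 50 kb and 0.354% beyond 100 kb. More of the peaks beyond 1000 bp lay downstream of the nearest start (58.0%) than of the genome (53.9%).

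**Figure D1:**
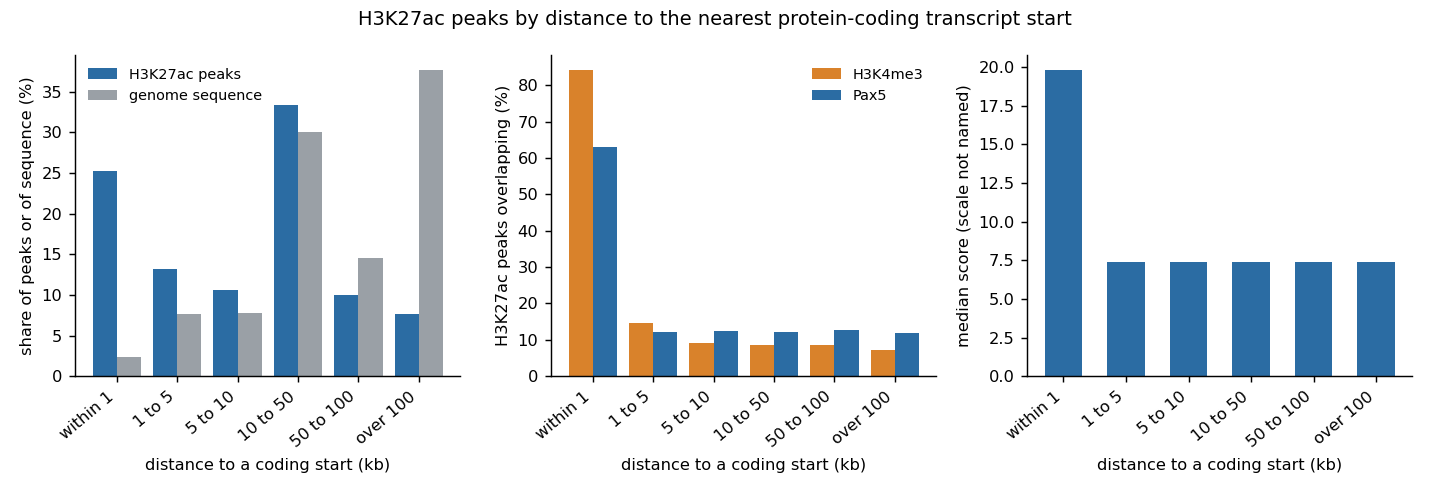
H3K27ac peaks by distance to the nearest protein-coding transcript start (x axes, kb). Left, share of the 69244 peaks (blue) and of the genome (grey); middle, share of the peaks in each bin that overlap H3K4me3 (orange) or Pax5 (blue); right, median score. The bin within 1000 bp holds 25.2% of the peaks and 2.31% of the genome, and the overlap with Pax5 and the score are level from the next bin on.

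Base composition differed between the same sets. In the middle 300 bp of a peak the median GC content was 52.7% near starts and 48.7% more than 10 kb away, against 41.8% for the genome. The median number of CpG dinucleotides in that window was 9 near starts and 3 more than 10 kb away, and the mean over the genome, which is not a median, is 2.50.

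At the starts themselves the mark was interrupted. Over 22360 protein-coding genes, the share covered by a peak was 30.4% at position -343 from the annotated 5′ end, 20.9% at the 5′ end and 31.6% at position 471, with the lowest value between the 2 maxima, 20.3%, at position -44. The share was 3.58% at 3000 bp upstream and 4.42% at 3000 bp downstream. A peak ran over the 5′ end of 4678 genes. Another 3451 genes had a peak on each side within 1000 bp and none over the 5′ end, 1506 had one downstream only and 701 upstream only. Pik3ap1, which encodes an adaptor that links the receptor to phosphoinositide 3-kinase, is of the kind with a peak on each side: the upstream peak ended 154 bp before its 5′ end and a peak of 3337 bp began 87 bp after it. Cd79a, which encodes a signalling chain of the receptor, had a peak of 5439 bp over its start that covers all 300 bp of the sequence shown.

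**Figure D2:**
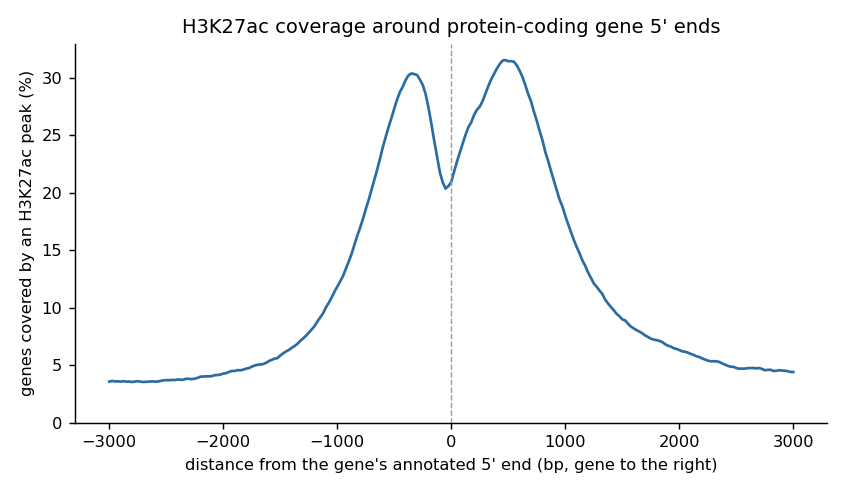
Share of 22360 protein-coding genes covered by an H3K27ac peak (y axis) at each distance from the gene's annotated 5′ end (x axis, bp, gene to the right). The curve has maxima of 30.4% upstream and 31.6% downstream, and a minimum of 20.3% between them.

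By the position of their midpoint 54.1% of the peaks were in introns, 36.0% were intergenic and 9.91% were in exons, beside 37.8%, 58.8% and 3.40% of the genome. Within protein-coding genes the first intron held 28.2% of all peaks and 12.1% of the genome, while the other introns held 24.1% and 23.7%. The covered share of bases was 24.7% in 5′ untranslated regions, 4.48% in first introns, 4.43% in coding sequence, 3.27% in 3′ untranslated regions and 1.77% in the other introns. Nearness to a start went with class, as 98.5% of the peaks in 5′ untranslated regions and 39.9% of those in first introns were within 1000 bp of a start, against 4.86% of those in other introns. Of the peaks more than 1000 bp from a start, 55.4% were in introns, 38.8% were intergenic and 5.77% were in exons.

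Of 22361 protein-coding genes 10963 (49.0%) had a peak at a start, and the share differed widely between gene families, which were grouped by name. Among the families counted, the shares were highest in 4 that most cells use. A start peak was present at 65 of 67 replication-dependent histone genes, 78 of 82 cytosolic ribosomal protein genes, 75 of 77 mitochondrial ribosomal protein genes and 40 of 42 proteasome subunit genes. Zinc finger genes named Zfp had one in 262 of 371 cases and Toll-like receptor genes in 8 of 12. Solute carriers (161 of 336) and interleukin receptor genes (22 of 42) were near the share of all genes. The lowest shares were 6 of 1113 olfactory receptor genes, 1 of 328 vomeronasal receptor genes, 2 of 51 keratin genes, 0 of 53 defensin genes and 0 of 36 protocadherin genes. The Hox genes, which set position along the body axis, had a start peak in 4 of 40 cases, and 28 of the 40 had no H3K27ac within 10 kb. Among genes that encode no protein, lincRNA genes were marked about as often as protein-coding genes (48.2% of 1273), and miRNA genes (10.7% of 1575) and pseudogenes (4.40% of 5200) less often. Genes that share a bidirectional start or a cluster share peaks, so these counts are not of independent genes.

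The pre-B receptor genes were marked over long stretches. The median covered length in the gene body plus 10 kb was 14098 bp for the 14 genes, against 994 bp for all protein-coding genes. Igll1, which encodes λ5, had 14316 bp covered, 61.4% of its window, and its neighbour Vpreb1 had 11855 bp. Their windows overlap and share peaks. Vpreb2, on the same chromosome, had 3640 bp. Cd79a and Cd79b, the signalling chains of the receptor, had 61.8% and 70.7% of their windows covered. Among the kinases and adaptors that act downstream of them, Syk had 20492 bp in 27 peaks, the phosphoinositide 3-kinase subunit Pik3cd 20737 bp in 20 peaks and its adaptor Pik3ap1 18528 bp in 17 peaks. The highest scores at a start in the list were those of the kinase gene Lyn (117), Pik3ap1 (114), Cd79a (101) and the adaptor Blnk (99.3). Btk, a kinase gene on the X chromosome, had 9077 bp covered and a score of 35.1.

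The B lineage transcription factor genes had a median of 17615 bp covered. Erg, Runx1, Bcl11a, Ets1 and Ebf1 ranked 11, 15, 26, 31 and 37 among all protein-coding genes by covered length, with 54577, 50615, 43448, 41189 and 38803 bp. Pax5 itself had 13872 bp in 15 peaks and a start score of 45.9, and Ikzf1, which encodes Ikaros, had 27922 bp in 43 peaks. Irf8, an interferon regulatory factor of B and myeloid cells, had 52.7% of its window covered. Spi1, the gene of the ETS factor PU.1, had the highest start score of the list, 168. Foxo1, needed for the recombinase genes, had the lowest, 14.1, with 6438 bp covered. The strongest peak assigned to a gene of this list far from a start was the one 89471 bp upstream of Lef1, a factor of early B and T cells, with a width of 2731 bp and a score of 99.1, whereas the start of Lef1 had 17.9. Assignment was by nearest start only.

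Genes of later B cell stages were divided. Cd22 (15115 bp covered, start score 19.8), Ccr7 (11727 bp, 33.6) and Bcl6 (3631 bp, 56.1) had start peaks. Ms4a1, the gene of CD20, had no H3K27ac in its window. Of the T cell genes 3 of 15 had a start peak, namely Cd5 (score 61.3), Lck (34.9) and Cd28 (8.16), beside 49.0% of all protein-coding genes. Of the 15 genes 7 had nothing in their window, including Cd3e, Cd8a, Gata3, Bcl11b and Themis, as had 8232 of all 22361. Cd5 and Lck are also transcribed in subsets of B cells. Of the NK cell genes 2 of 5 had a start peak (40%, beside the same 49.0%), Klrb1c with a score of 3.70 and Nkg7 with 7.70. Their windows held more: Klrb1c had 11087 bp in 15 peaks with scores up to 128, and Nkg7 had 4354 bp in 7 peaks. The other 3 had no H3K27ac in their windows.

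The myeloid genes differed from the B lineage genes in the overlap of the mark with Pax5 as well as in its score. Of the 14 genes 3 had an H3K27ac peak that overlapped Pax5 in their window, against 14 of 14 pre-B receptor genes, 19 of 19 B lineage factors and 74.3% of all 14129 protein-coding genes with H3K27ac. Those 3 genes were Itgam, Fcgr1 and Cd14. Narrow and low-scoring peaks overlapped Pax5 less often in the whole list, and the part of that in this difference was not tested. For H3K4me3 the counts were 11 of 14 myeloid genes, 13 of 14 pre-B receptor genes and 19 of 19 B lineage factors, beside 86.4% of all with H3K27ac. The transcription factor gene Cebpe, which acts in granulocytes, had 6138 bp in 9 peaks, the lysozyme gene Lyz2 had 6222 bp in 12 peaks, and the granule protein gene Ngp had 4382 bp in 5 peaks, all without Pax5. S100a8 and S100a9, which encode the abundant calcium-binding proteins of neutrophils, had start scores of 16.7 and 13.2. Mpo had a start score of 8.01, and Elane and Cebpa had no peak at a start. The erythroid genes Klf1 and Hba-a1 had start scores of 14.1 and 16.3, while Gata1 and the platelet gene Pf4 had no H3K27ac in their windows. Of the 8 erythroid and megakaryocyte genes with H3K27ac 2 had a peak overlapping Pax5. The stromal genes Col1a2, Col3a1, Kdr, Cxcl12 and Lepr had none in their windows. Pecam1, a gene of vessel walls and of blood cells, had 22945 bp, Cdh5, the gene of an endothelial cadherin, had 7369 bp in 10 peaks with none at its start, and Col1a1 had a start score of 7.40.

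**Figure D3:**
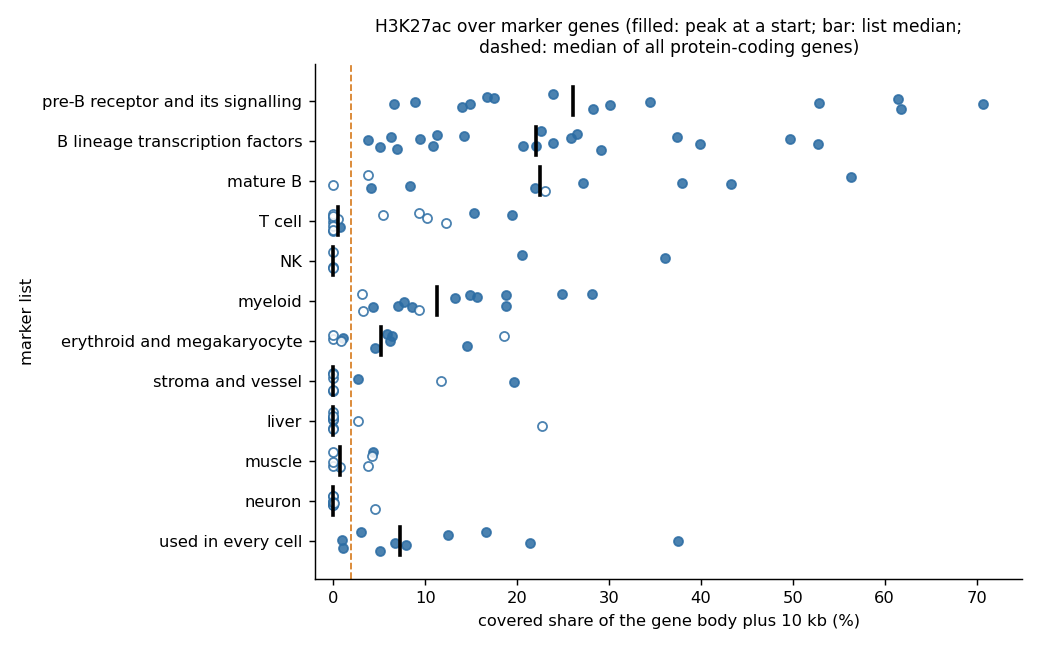
Covered share of the gene body plus 10 kb (x axis, %) for each gene of the marker lists (rows). Filled points have a peak within 1000 bp of a start, open points do not, black bars are list medians and the dashed line is the median over all protein-coding genes, 1.87%. The pre-B receptor genes have a median of 26.1%, the myeloid genes of 11.3% and the liver and neuron genes of 0.

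The autosomes carried 28.6 peaks per Mb of sequence. The highest densities were on chromosomes 11 (45.4), 19 (41.8) and 17 (38.9), and the lowest on chromosomes 3 (18.8), 14 (21.2) and 18 (21.4). Chromosomes with more protein-coding genes per Mb had more peaks per Mb, with r = 0.797 (Pearson) and rho = 0.781 (Spearman) over the 19 autosomes, a description without a test, since all points come from the same library and peaks near starts are part of the count. The X chromosome stood apart from that relation. It had 5.71 peaks per Mb, 0.200 of the autosomal density, with 5.75 protein-coding genes per Mb. Chromosome 18, with a like 5.90 genes per Mb, had 21.4 peaks per Mb. The gap was wider away from starts, where the X had 2.98 peaks per Mb farther than 1000 bp from a start and the autosomes had 21.5. Start peaks were present at 299 of 932 genes on the X (32.1%) and at 49.8% of 21412 autosomal genes. Where an X-linked start peak was present the scores were lower, with a median of 15.0 for peaks near starts against 19.8 on autosomes. Farther than 1000 bp from a start the median was 8.16 on the X and 7.40 on autosomes. The median over all X peaks, 10.6, was above that of autosomes, 8.41. Peaks near starts, which had the higher scores, are a larger part of the X count, as the densities above show. The mice included both sexes, in proportions that are not given in the sources used here. The Y chromosome had 4 peaks.

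**Figure D4:**
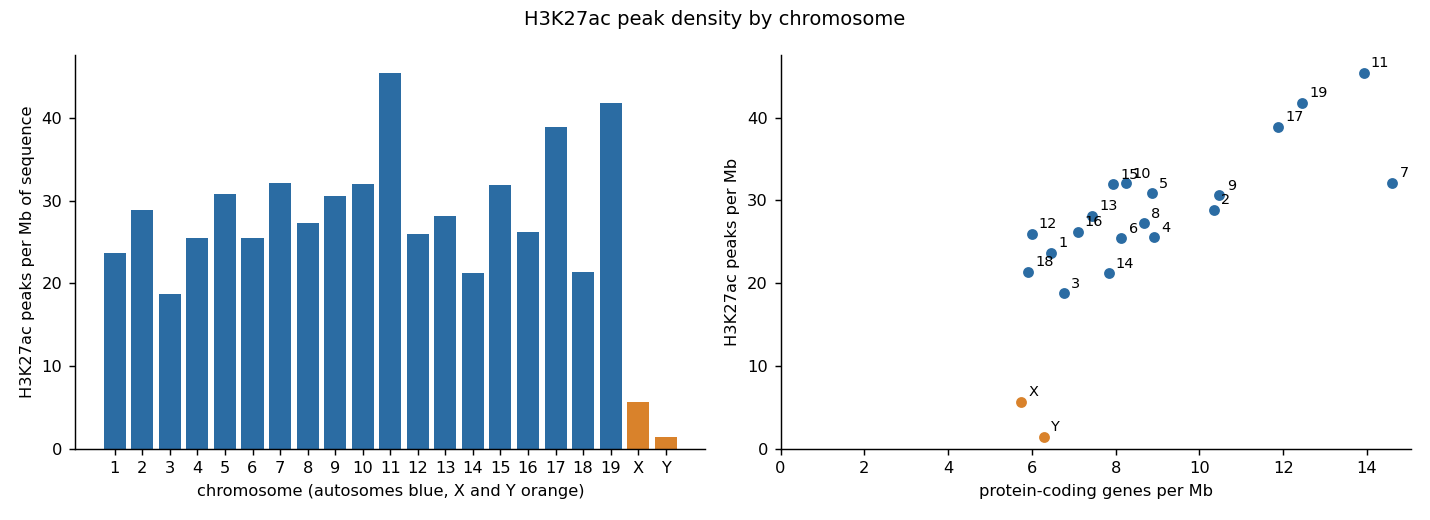
Left, H3K27ac peaks per Mb of sequence for each chromosome, with autosomes in blue and X and Y in orange; right, the same values against protein-coding genes per Mb. Autosomes range from 18.8 to 45.4 peaks per Mb and the X chromosome has 5.71.

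Peaks were gathered in a minor part of the genome. Of 2538 windows of 1 Mb 575 held no peak, and the 253 windows with the most covered sequence held 41.8% of it and 23.5% of the protein-coding genes. The window with the most, chr10:80000001-81000000, had 198 peaks over 166565 bp and 60 genes, among them Dot1l, the H3K79 methyltransferase, Gadd45b, a stress response gene, and the signalling genes Map2k2, Gna15 and S1pr4. The next, chr8:74000001-75000000, had 180 peaks and 39 genes, including Jak3, the kinase bound to the common γ chain of the interleukin 7 receptor, and Klf2, a factor of lymphocyte quiescence. The third, chr2:166000001-167000000, had the most peaks, 210, but only 9 genes, of which Prex1 encodes an exchange factor for Rac. At the other end, the longest stretch without a peak was chr1:109480305-120207173, 10726869 bp with 5 protein-coding genes, among them the cadherins Cdh7 and Cdh19 and the neuronal gene Cntnap5a. The next were 8603787 bp and 8576462 bp on chromosome 5, around Epha5, an axon guidance receptor gene, and Pcdh7, a protocadherin gene. Between neighbouring peaks the median gap was 1258 bp, and 47.1% of the gaps were under 1000 bp.

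The genes with the most covered sequence were sought among 22361 protein-coding genes by the covered bp in the gene body plus 10 kb on each side. The 3 highest values rested on how the genes are annotated. Gm20388 had 330152 bp over a model of 4434882 bp, Fgfr2 had 151124 bp over 3009069 bp and Eif4e3 had 77180 bp over 409314 bp. The windows of Gm20388 and Fgfr2 hold 74 and 32 other protein-coding genes. That of Eif4e3 holds 1, Foxp1. The Eif4e3 model (chr6:99207478-99616791) overlaps only the 5′ part of Foxp1 (chr6:98875332-99216526). Over the protein-coding transcripts that are no readthrough, Fgfr2 had 0 bp and Eif4e3 4650 bp, while Gm20388 has no such transcript. The other 22 of the first 25 were among the first 25 with and without readthrough models, and Bcl11a, Cux1 and Xylt1 filled the places. These are long genes, with a median body of 179968 bp in the first 25 against 15434 bp for all genes, and over all genes covered bp and body length had a rank correlation of 0.292, across genes that are not independent.

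Zmiz1, a coactivator of the PIAS-like family, had the most covered sequence after these, 73054 bp in 88 peaks, 32.1% of its window. Arid1b, a subunit of the BAF chromatin remodelling complex, had 70466 bp in 88 peaks. Fam53b had 65911 bp in 46 peaks, 54.1% of its window, and the adjoining phosphatase gene Lhpp had 51077 bp with no peak at its own start. Further chromatin and transcription genes were Rreb1, a zinc finger factor (58071 bp), the forkhead genes Foxp1 (50439 bp) and Foxn3 (46700 bp), and the ETS and RUNX genes named above. Foxp1 is needed in early B cell development. A pair of cell cycle genes that act together was present, Ccnd3, the D-type cyclin of pre-B cells, with 53601 bp and 46.8% of its window, and Cdk6, its kinase partner, with 47462 bp in 80 peaks. Genes of membranes and signalling were Cyth1, an exchange factor for Arf GTPases (56174 bp), Sgms1, a sphingomyelin synthase (54924 bp), Mgat5, a glycosyltransferase of N-glycan branching (49107 bp), and Litaf (47152 bp). The remaining genes of the first 25 were Gfod1 (54912 bp), Mtss1, an actin-binding protein of the cell membrane (53575 bp), Prim2, the large subunit of DNA primase (50215 bp), Katnal1, a relative of the microtubule-severing katanin (47378 bp), and AI480653 (45702 bp). Some windows belong in part to another gene. Tg, which encodes thyroglobulin of the thyroid, had 44821 bp but a start score of 6.66, and the gene Sla, an adaptor of lymphocyte receptors, lies in its window. The window of Ubac2 (49581 bp) holds Gpr183 and Gpr18, receptor genes of lymphocytes. For comparison, 225 genes had more than 20000 bp covered.

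**Figure D5:**
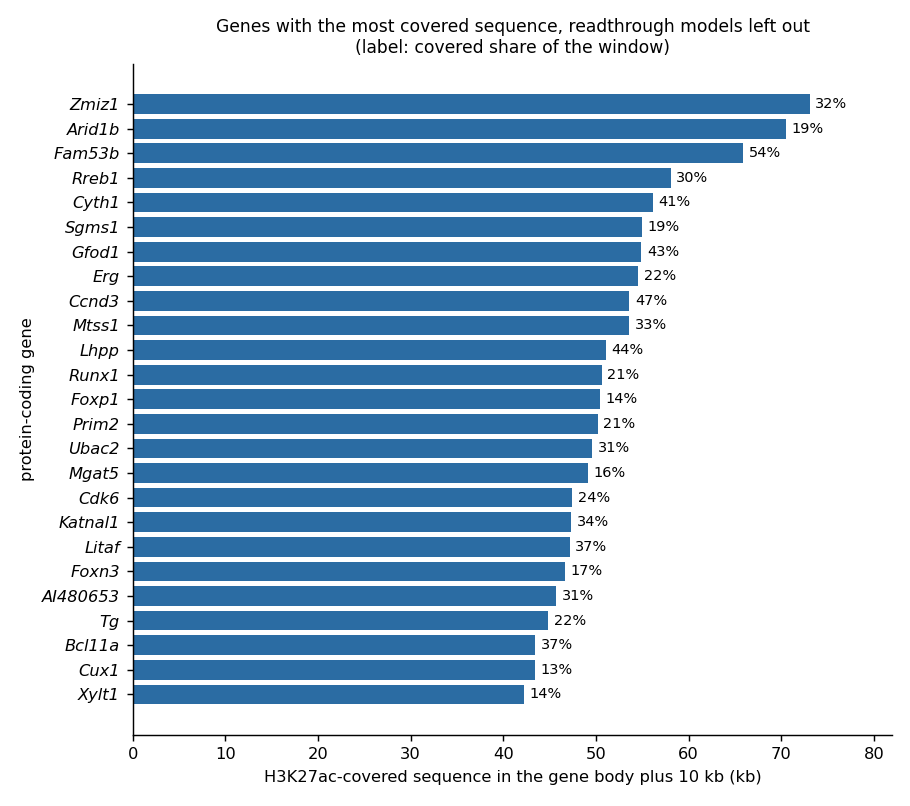
H3K27ac-covered sequence in the gene body plus 10 kb (x axis, kb) for the 25 protein-coding genes with the most, counted over protein-coding transcripts that are no readthrough; labels give the covered share of the window. Zmiz1 leads with 73054 bp, and the share runs from 12.8% at Cux1 to 54.1% at Fam53b.

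By the covered share of the window other genes led, and the bodies of the first 10 were 469 to 4160 bp long. Hist1h2bb had 78.0%, Hist1h3b 77.8%, Hist1h2ab 77.2%, Hist1h4b 75.7% and Hist1h3c 70.4%, neighbours in the replication-dependent histone cluster of chromosome 13 whose windows share the same peaks. The other 5 of the first 10 were Elof1, which encodes a transcription elongation factor (77.5%), Gm15409 (71.6%), the glycosyltransferase gene B3gnt8 (70.8%), Cd79b (70.7%) and Zfp36 (66.5%), which encodes tristetraprolin, a protein that promotes the decay of AU-rich mRNAs. None of the first 25 by share was among the first 25 by covered bp.

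The widest peak of the list, 24698 bp at chr7:139899999-139924696, lay in and beyond the last part of Fam53b, 43903 bp from the nearest coding start, with a score of 110. The second, of 20037 bp, was 3613 bp upstream of Slco4a1, and the third, of 16437 bp, covered the start of Adrbk1, the gene of a kinase of G protein-coupled receptors. Another of 15813 bp was in Lhpp, the gene next to Fam53b, and 1 of 12432 bp was 16621 bp upstream of Ets1. All 5 overlapped Pax5, and 3 overlapped H3K4me3. Their scores, from 83.3 to 122, were not the highest in the list.

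Several of the highest scores were at genes of small nuclear RNAs. After the peak at the start of 5031425E22Rik (chr5:22937566-22940173, score 330), the ranks 2, 3, 4 and 5 were peaks over U1 and U2 genes on chromosomes 12, 11 and 3, with scores of 314, 309, 292 and 277. The nearest protein-coding genes were Gm16382 for both peaks on chromosome 12 (7777 and 35985 bp), Rdm1 (13128 bp) and BC107364 (33631 bp). The ranks 6 and 7 were at protein-coding starts. Rank 6 lay over a start of Prdx5 and also overlapped the genes Trmt112 and Esrra (268). Rank 7 lay over a start of Tada3 (268), a subunit of histone acetyltransferase complexes. Of the 10 highest peaks 6 lay over a U1, U2 or U4 gene, as did 9 of the 25 highest. These RNAs are the core of the spliceosome, and U1 pairs with the 5′ splice site through its first bases, which open the capitals of the sequence shown. The mouse genome holds many annotated copies, and 19 of 206 U1 genes, 8 of 51 U2 genes, 5 of 43 U4 genes and 66 of 936 U6 genes had a start peak, beside 8.29% of all snRNA genes. Of the U5 genes 7 of 10 had one. High scores were not shared by every kind, as the median at marked genes was 116 for U1 and 15.9 for U6.

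Most of these peaks lie in DNA that occurs more than once. In the 9 peaks the middle 32 bp occurs at 2 to 18 places, except in the U4 peak at chr5:115938286-115941181 and the U2 peak at chr11:101507074-101507940, where it occurs once. That U2 peak still has an edit distance of 27 over 867 bp (96.9% identity) to the U2 peak at chr11:101502384-101503287. The count of places allows no mismatch, whereas the alignment in the methods allows 2, so a single place does not show unique mapping. The methods keep reads with up to 3 best positions, but whether the deposited list was made with that setting is not given in the sources used here. The U1 peaks at chr12:55810475-55812222 and chr12:55838683-55840430 have the same width, 1748 bp, and differ at 3 positions by edit distance (99.8% identity). Those at chr12:55819699-55820993 and chr12:55829888-55831204 differ at 2 positions over 1295 bp and carry the same score to every digit given, 259. The middle 32 bp of the former pair occurs at 18 places in the genome and that of the latter pair at 2. Where reads with several positions were kept, a read from one copy could be counted at its partner, and how the signal is divided between the copies cannot be told apart. In the whole list the middle 32 bp occurred at a single place for 95.6% of the peaks. The share was 86% among the 100 highest scores and 60% among the 20 highest. Of the peaks more than 10 kb from the start of a gene of any type, the highest score was 184, in a peak of 6119 bp 15019 bp downstream of the nearest coding start, that of Trak1.

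Distant peaks with and without Pax5 overlap differed in score and width. Of the 35262 peaks more than 10 kb from a coding start, 4311 overlapped Pax5. These had a median score of 16.9 and a median width of 920 bp, and the others had 7.38 and 359 bp. A wide peak has more room to touch a Pax5 peak, and scores rose with width. The split itself therefore favours wide peaks, and the part of that in these differences was not tested. Of the distant peaks 83.0% overlapped neither Pax5 nor H3K4me3, and 3.52% overlapped both. Near starts the 2 shares were 13.3% and 60.5%.

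The letters of known binding motifs were counted on both strands in the middle 300 bp of the distant peaks and in all 8517287 windows of that length in the genome. The PU.1 form of the ETS motif, GAGGAAGT, occurred in 3.19% of distant peaks and in 1.80% of genome windows. The EBF1 motif, TCCC and GGGA with any 2 bases between them, occurred in 1.05% and 0.497%, and the E-box CAGGTG in 22.9% and 17.2%. The RUNX motif TGTGGTTT was nearly even, in 2.89% and 2.65%. The octamer ATGCAAAT was less frequent in distant peaks (1.33%) than in genome windows (2.62%). The GC box GGGCGG occurred in 5.68% of distant peaks and in 22.8% of peaks near starts, against 2.86% of genome windows. The EBF1 motif, the E-box, the GC box and the CTCF core hold more G and C than A and T, the PU.1 motif as many of each and the octamer fewer. The windows themselves differ in GC content, whose part in these shares was not tested. Of the sequences shown, those of Cd79a, Pik3ap1 and Lef1 hold the E-box once and that of Igll1 holds it 2 times. In the 300 bp upstream of protein-coding genes the GC box was found at 57.1% of 10963 genes with a start peak and at 25.4% of 11398 genes without one, and the E-box at 18.2% and 22.3%. A match is a string of letters and no measured binding.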

How the data were processed

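H3K27ac was measured by ChIP-seq in RAG-/-µ+ pre-B cells, with 1 library and an input, and the peak list was used as deposited by the authors. The score that the authors deposited for each peak comes from their peak caller, and its scale is not named. It was used only within this list, to rank peaks and to compare scores and median scores between groups of peaks. The submitters' processing notes name Bowtie 0.12.9, MACS 1.4.2 and mm9, while the paper's methods name a later Bowtie with duplicates removed and reads kept at up to 3 best positions. The MACS settings for this list are not given in the sources used here, depth is unknown, and a list without reads allows no counting interval. The authors' H3K4me3 list consists of other values, 25 bp bins with no score, which were joined into 23237 regions where they touch, and only positions were used of the Pax5 list. The 3 input samples were not used.

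Positions are 1-based on NCBIM37 with GENCODE M1. A transcript start is that of a protein-coding transcript, a class is that of the midpoint, densities are per Mb of sequence without N, and windows of 1 Mb needed 90% sequence. Covered bp were merged over the gene body plus 10 kb. The marker lists name Spi1 and Syk, found in GENCODE M1 under older names through RefSeq synonyms. Copies of the middle 32 bp were counted on both strands without mismatch. Sequences were read from NCBIM37. Functions were tested on simulated data. Python 3.11.15, numpy 2.4.6, pandas 2.3.3, scipy 1.17.1 and matplotlib 3.10.9 were used.

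Named are the 25 genes with the most covered bp, the 10 with the highest covered share, the marker genes, the nearest genes of the 5 widest and 5 highest-scoring peaks, and genes in the 3 densest windows and the 3 longest stretches without a peak. Of the marker genes and of the genes in these windows and stretches only examples are printed. Other named genes and the gene families were chosen after their values were seen. The members and lists were chosen with earlier results of these data known.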

Additional observations from a re-analysis of the deposited data

How the results depend on the processing

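Each result rests on 1 library. As a fixed yardstick, a setting was called moved beyond the 95% exact binomial interval of a share or a factor of 1.5 for a count. Peaks are not independent and the settings share peaks, so that interval measures no spread between libraries or settings. The intervals are narrow, and most shares moved beyond them. The genome's shares under the altered definitions are not given here, so the order against the genome was not compared. The higher-scoring 50% of the peaks had a median width of 737 bp, 40.9% of them were near a start, 49.4% overlapped H3K4me3 and 43.2% Pax5, and 36.6% were intergenic, 50.9% intronic and 12.5% exonic. The share near a start was 22.8% from the midpoint, 21.7% within 500 bp, 31.3% within 2500 bp and 29.4% with transcripts of all gene types. Over protein-coding genes only, 38.8% were intergenic, 52.4% intronic and 8.85% exonic, and with any overlap counted, exons first, the shares were 33.5%, 42.9% and 23.5%. With the midpoint inside the other list, overlap was 23.4% for H3K4me3 and 17.3% for Pax5. Of the 25 genes with the most covered bp, 0 were among the 25 by covered share, 19 to 24 with a body alone or with 5 or 50 kb, and 22 in the higher-scoring list. The X to autosome ratio was 0.175 by covered sequence and 0.246 in the higher-scoring list. Alternatives chosen after seeing the data were peaks whose middle 32 bp occurs at a single place (25.6% near a start, 29.0% with H3K4me3) and readthrough transcripts left out (36.5% intergenic, 53.6% intronic). No paired analysis was possible because the mark was profiled in 1 library.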
